A study of Homo sapiens with 6 samples.

Results

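The 4 libraries sorted by flow cytometry from parental SW1990 cells were compared, gene by gene, with 1 library of unsorted parental cells. SW1990 is an established human pancreatic cancer cell line, grown in DMEM/F-12 medium with fetal bovine serum. The sorted cells were positive or negative for TRA-1-81, a sugar epitope known from pluripotent stem cells and carried on podocalyxin. There were 2 positive and 2 negative libraries, each titled 0603 or 0610, and the labels give neither the meaning of these numbers nor the cultures behind each library. The other library came from a derivative line resistant to gemcitabine, a chemotherapy drug of the nucleoside class, and grown with 100 nM of it. It entered no test, and its levels are given beside the results. None of the 5 parental libraries is labelled with drug treatment or a genetic change. The labels do not give the cause of any difference between sorted and unsorted cells, and sorting, culture and library cannot be told apart.

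Levels are FPKM (RNA fragments counted per kilobase of a gene's transcript and corrected for library size), and differences are of log2(FPKM + 1), sorted minus parental, averaged over the 4 sorted libraries. A gene was tested when its FPKM reached 1 in any of the 5 libraries, which held for 11823 of 19077 genes. In 5292 of these (44.8%) all 4 sorted libraries lay above the parental one, in 4279 (36.2%) all 4 lay below it, and 2252 were mixed. At least a 2-fold difference in all 4 libraries was found for 449 higher genes (3.8%) and 133 lower genes (1.12%). All 4 differences share the 1 parental library, so a high or low value in that library moves all of them. limma, with the positive and negative library of each number averaged to give 2 values against 1, called 2563 genes higher (21.7%) and 1682 lower (14.2%) at a Benjamini-Hochberg adjusted p under 0.05. Its p-values rest only on the spread between the 2 numbers, which may be technical, and assume that the lone parental library varies like them. limma moves the spread of each gene toward that of genes of similar level. The SE given below (standard error of the log2 difference) is therefore in part shared across genes and is not the precision of a single gene. With no filter on low values the same limma test called 0 genes in either direction, although 5644 had an unadjusted p under 0.05, against 5624 with the filter. Higher genes made up 60.4% of the limma calls and 77.1% of the 2-fold genes, and 48.2% and 66.1% after quantile normalization. Below, "rose" and "fell" refer to genes called by limma with the filter, and counts of list members stand against these 21.7% and 14.2% of all tested genes.

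All 449 of the 2-fold higher genes and 132 of the 133 lower ones were also called by limma, and the exception was TRIB3 with an adjusted p of 0.0586. Nearest to the 2-fold limit, the smallest of the 4 differences was 1.0003 for SLC25A10, just inside, and just under 1 (0.999961) for SLC35G2, just outside. Among lower genes, the smallest fall was 1.0039 for KIAA1755, inside, and 0.998 for SIAH2, outside. Taken singly, the sorted libraries had 603 to 703 genes 2-fold or more above the parental library and 186 to 372 genes as far below it. Between sorted libraries the numbers were smaller, with 13 and 3 genes for positive against negative in 0603, 11 and 6 in 0610, 44 and 2 for 0610 against 0603 among negative libraries and 34 and 7 among positive ones. The 2-fold higher genes had a median FPKM of 3.04 in the parental library and 12.98 over the sorted ones. For the 2-fold lower genes the medians were 25.4 and 6.37.

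**Figure D1:**
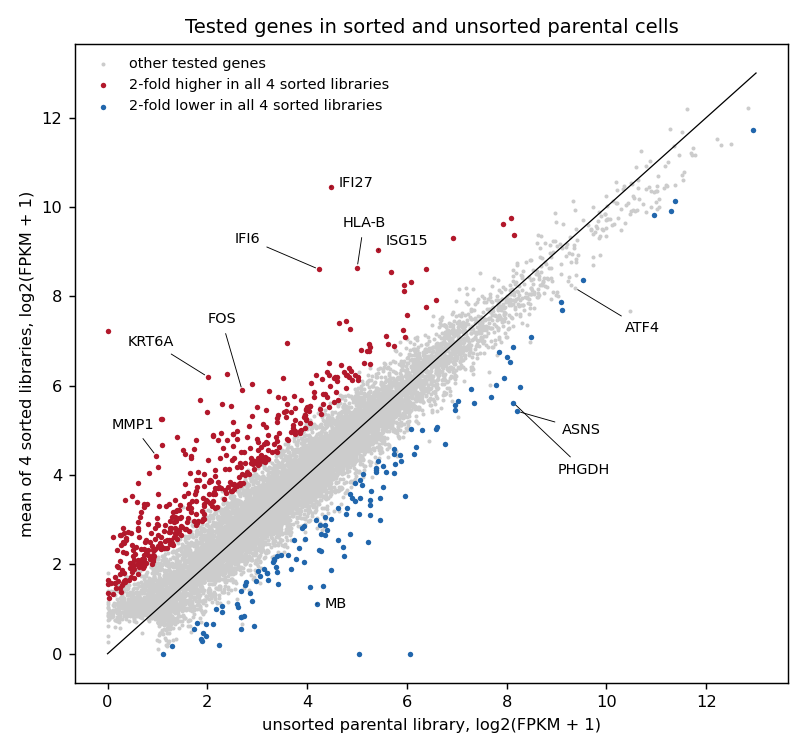
Each point is 1 tested gene, with log2(FPKM + 1) in the unsorted parental library on the x axis and the mean of the 4 sorted libraries on the y axis; the line marks equal values. The 449 genes at least 2-fold higher in all 4 sorted libraries are red and the 133 lower ones blue, and a few genes described in the text are named.

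All 8 ductal epithelial markers were detected, with a summed FPKM of 5923 in the parental and 4829 to 5874 in the sorted libraries. Fibroblast markers summed to 2.87 and 4.51 to 5.45, nearly all of it from COL1A1 and LUM, and THY1 was at 0 in all 5 libraries. Leukocyte markers summed to 19.3 and 22.6 to 29.3, from CD68 and LYZ, while MS4A1 was at 0 in all 5 and PTPRC (CD45) was at 0.0205 or less. Endothelial markers summed to 3.05 and 2.30 to 4.89, mostly CDH5, and erythroid and islet markers to 0.190 or less. Acinar markers summed to 5.54 and 0.595 to 1.65, mostly PRSS1 in the parental and 0610 libraries. In the 0603 libraries CELA3A was slightly above PRSS1. The sum of FPKM over the table was 528627.1 for the parental library and 474742.8 to 492838.5 for the sorted ones. Depth is not given, and by a rough estimate, 3 fragments from 1 kb of transcript give an FPKM of 0.175 in the parental and 0.0974 to 0.111 in the sorted libraries, so low parental values are the less precise. In bulk samples, more cells of a kind and more RNA per cell cannot be told apart.

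Interferons are secreted proteins that bind receptors on neighbouring cells and activate JAK kinases. The kinases phosphorylate STAT proteins, which join IRF9 and bind the interferon-stimulated response element (ISRE) in the promoters of antiviral genes and of genes for MHC class I presentation. ATF4 is a transcription factor whose translation increases when amino acids are short or the endoplasmic reticulum is stressed. It binds the CARE element (C/EBP-ATF response element) in genes for amino acid synthesis, amino acid import and tRNA charging. Immediate early genes encode transcription factors such as FOS and EGR1 that are transcribed within minutes of growth factor signals or of handling stress.

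The promoter stretches of 4 of the highest interferon-stimulated genes are shown because each holds several ISRE cores upstream of the start. TAP1 and B2M stand for class I presentation, and ASNS and AARS hold a CARE element. They are RefSeq sequence (GRCh38.p14), on the gene's own strand, 5′ to 3′, with capitals marking the letters GAAANNGAA (ISRE core) or TGATGNAA (CARE) or their reverse complement. Neighbouring matches can overlap.
IFI27: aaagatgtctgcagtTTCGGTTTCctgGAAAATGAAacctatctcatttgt
IFI6: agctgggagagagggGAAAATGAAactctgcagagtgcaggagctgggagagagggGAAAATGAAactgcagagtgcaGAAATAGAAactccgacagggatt
BST2: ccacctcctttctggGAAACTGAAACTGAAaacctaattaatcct
ISG15: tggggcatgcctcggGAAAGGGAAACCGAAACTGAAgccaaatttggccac
TAP1: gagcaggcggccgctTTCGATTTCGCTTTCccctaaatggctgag
B2M: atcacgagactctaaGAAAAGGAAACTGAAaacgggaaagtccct
ASNS: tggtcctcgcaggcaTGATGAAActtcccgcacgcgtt
AARS: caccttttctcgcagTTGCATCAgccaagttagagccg
These lie at chr14:94110614-94110664 (+ strand), chr1:27672262-27672363 (- strand), chr19:17405731-17405775 (- strand), chr1:1013369-1013419 (+ strand), chr6:32853808-32853852 (- strand), chr15:44711358-44711402 (+ strand), chr7:97872454-97872491 (- strand) and chr16:70289671-70289708 (- strand). In IFI27 the matches begin 107 and 95 bases before the start of transcription, in IFI6 156, 115 and 93 bases before it, and in ASNS 68 bases before it. Over the 300-base windows of the RefSeq table (250 bases before to 50 after the start), the ISRE core was present in 27 of the 39 matched interferon-stimulated genes (69.2%) and 9 of 17 class I genes (52.9%). The shares were 14.5% of the 337 matched 2-fold higher genes, 8.16% of the 98 matched 2-fold lower genes, 6.42% of the 9668 matched tested genes and 8.30% of all 27195 promoters. The 2-fold higher genes include 39 of the 47 tested interferon-stimulated genes and 9 class I genes. Their share is therefore not separate from those of the 2 lists. CARE was present in 5 of 26 ATF4 and amino acid response genes (19.2%) and 6 of 15 aminoacyl-tRNA synthetase genes (40%), against 1.64% of the tested genes and 3.67% of all promoters. The 27 interferon-stimulated genes with a core had a median log2 difference of 2.33 and the 12 without 1.92, while the 9 class I genes with a core had 1.002 and the 8 without 1.38. For CARE among ATF4 and amino acid response genes the medians were -1.12 for the 5 with a match and -1.17 for the 21 without. These matches are descriptions of letters, not measured binding sites.

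Interferon-stimulated genes had the highest share of members called higher among the 36 lists. Of the 47 tested members, 46 rose and none fell, and 39 were at least 2-fold higher in all 4 sorted libraries. The median log2 difference was 2.13, against 0.04 over all genes tested, and the median was 1.85 and 1.98 in the negative libraries and 2.32 and 2.28 in the positive libraries 0603 and 0610. The exception was TRIM25, a ubiquitin ligase of the RIG-I pathway, at 51.5 in the parental and 47.7 to 51.6 in the sorted libraries.

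IFI27, a mitochondrial and nuclear-envelope protein and one of the most inducible interferon targets, had the highest difference of the list. Its FPKM was 21.2 in the parental library, 1361 and 1424 in the negative and positive libraries 0603, and 1352 and 1453 in those of 0610. The 4 sorted values lay close together and far above the parental one, a log2 difference of 5.97 (SE 0.12, limma adjusted p = 1.17e-05). IFI6, a mitochondrial survival protein, stood at 17.9 in the parental library and, in the same order, at 320.0, 419, 379 and 448 (log2 4.37, SE 0.13, adjusted p = 8.76e-05 by limma). ISG15, a ubiquitin-like modifier, went from 42.0 to 478, 630.2, 444 and 569.6 (log2 3.61, SE 0.13, adjusted p = 0.000108 by limma). In IFI6 and ISG15 both positive libraries were above the negative library of the same number. BST2 (tetherin), which holds budding virus particles at the cell surface, had 4.26 in the parental library and 59.4, 86.0, 71.4 and 88.4 in the sorted ones (log2 3.86, SE 0.13).

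The cytoplasmic effectors rose with them. MX1, a dynamin-like GTPase that blocks virus replication, had an FPKM of 2.61 in the parental library and 47.3 to 55.2 in the sorted ones (log2 3.82, SE 0.12). The 2′-5′ oligoadenylate synthetases, which activate RNase L, were at 6.48 and 59.6 to 73.5 for OAS1, 3.01 and 34.1 to 48.4 for OAS2, and 4.60 and 40.8 to 51.0 for OAS3. No sorted library overlapped the parental value in any of the 3. RSAD2 (viperin) stood at 1.02 and 12.2 to 23.1, and IFIT1, which binds foreign RNA caps, at 3.81 and 25.7 to 35.8. The RNA sensors IFIH1 (MDA5) and DDX58 (RIG-I) differed by 2.33 and 1.78 on the log2 scale. USP18, which removes ISG15 from proteins and dampens receptor signalling, differed by 3.01 (SE 0.14, limma adjusted p = 0.000169).
The smallest called differences belonged to IFITM2 (0.45, adjusted p = 0.0352 by limma) and LGALS3BP (0.58), at 52.1 and 391 in the parental library. In 44 of the 47 genes the positive library exceeded the negative one in both numbers, and in 18 the 0610 libraries exceeded those of 0603 in both fractions. Over all 11823 tested genes the mean of the positive libraries was above that of the negative ones in 6440. The 0610 mean was above the 0603 mean in 6188. The same order in both pairs was counted for the lists only.

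Upstream of these genes, the interferon receptors and signal transducers differed by less. Of 24 tested members, 17 rose, none fell and 4 were at least 2-fold higher in all 4 libraries, with a median log2 difference of 0.52. The lambda interferon gene IFNL1 was low throughout, with an FPKM of 0.105 in the parental library, which is under the approximate 3-fragment level, and 0.232, 0.554, 0.274 and 1.10 in the sorted ones, and it was not called (limma adjusted p = 0.0757). The type I receptor chains rose, IFNAR1 from 11.5 to 18.6 to 20.7 and IFNAR2 from 4.13 to 7.80 to 9.43. The kinase TYK2 rose by 0.54 and JAK2 by 0.77, while JAK1 stood at 21.6 in the parental library and 19.6 to 22.2 in the sorted ones and was not called.
STAT2 and IRF9, partners in ISRE binding, rose by 0.53 and 1.35. IRF7, which amplifies interferon transcription, had the largest difference of the group, from 2.17 to 17.2, 18.8, 22.4 and 24.3 (log2 2.76, SE 0.17). Both 0610 values of IRF7 lay above both 0603 values. IRF3, the factor activated by RNA sensors, rose by 1.08. STAT6 (0.06), IRF2 (0.12) and SOCS3 (-0.17) were not called.

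**Figure D2:**
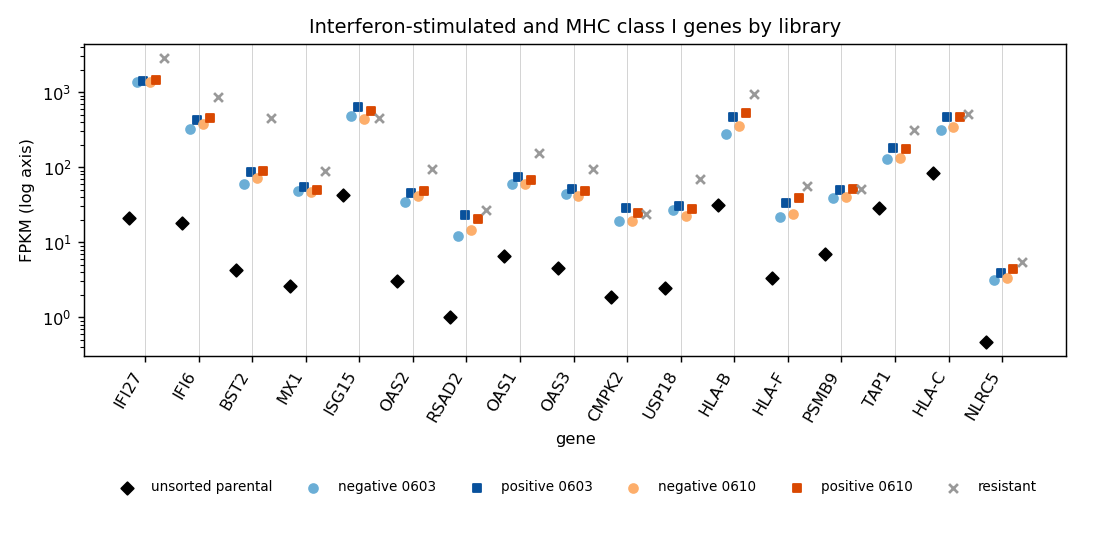
FPKM (log axis) of the 11 interferon-stimulated genes with the highest differences and 6 MHC class I presentation genes, by library; symbols stand for single libraries. The 4 sorted libraries lie above the unsorted parental library for each gene shown, and the resistant library is given for reference.

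The genes of MHC class I presentation, which load peptides from the proteasome onto cell-surface HLA molecules for recognition by T cells, rose in 19 of 21 cases, and none fell. The median log2 difference was 1.11, and in 9 genes all 4 libraries were at least 2-fold higher. HLA-B was measured at 31.1 in the parental library and 281, 470.1, 359 and 536 in the sorted ones (log2 3.64, SE 0.15, limma adjusted p = 0.000143). Positive libraries were above negative ones in both numbers, and none came near the parental value. HLA-C rose by 2.21 (SE 0.12) and HLA-F by 2.76 (SE 0.13), although reads of these near-identical genes can be shared and their single values are uncertain. B2M, the invariant light chain, was already at 499.9 and reached 822 to 1033 (log2 0.90, SE 0.12).
The peptide transporter subunits TAP1 and TAP2 rose by 2.39 and 1.33, TAP1 from 28.2 to 128, 181, 131 and 175. The immunoproteasome subunits PSMB9 and PSMB8 rose by 2.51 and 1.58, and PSMB10 by 0.85. NLRC5, the transactivator of class I genes, went from 0.472 to 3.19 to 4.42. TAPBPL (-0.18) and the chaperone PDIA3 (0.19) were not called.

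Immediate early genes split within the group. Of 27 tested, 11 rose, none fell, 6 were at least 2-fold higher in all 4 libraries, and the median log2 difference was 0.29. FOS, a subunit of the AP-1 dimer, had an FPKM of 5.49 in the parental library and 53.9, 63.0, 60.2 and 57.1 in the sorted ones, a difference of 3.19 (SE 0.12, limma adjusted p = 0.000108), and stood at 2.96 in the resistant library. Its relative FOSB went from 0.254 to 3.40, 5.78, 4.68 and 4.76. EGR1, a zinc-finger factor of growth signals, was at 2.59 and 9.92, 12.2, 16.1 and 18.1 (log2 2.04, SE 0.24), and the orphan nuclear receptor NR4A1 differed by 2.05 and JUNB by 1.48. In EGR1, NR4A1 and JUNB both 0610 libraries lay above both 0603 ones, and in FOS they did not. The antiproliferative gene BTG2 stood at 0.569 in the parental library, 4.31 and 5.34 in 0603 and 10.9 and 11.1 in 0610. JUN (0.12), MYC (-0.01), ATF3 (0.29) and FOSL1 (-0.27) were not called. Among feedback regulators of ERK, the ERK phosphatase DUSP6 fell to 39.1 to 56.9 from 124 (SE of the log2 difference 0.19, limma adjusted p = 0.00408) and the RAS pathway inhibitor SPRY4 fell by 0.96. Of the 15 tested members 2 fell (13.3%, against 14.2% of all tested genes) and 2 rose (13.3%, against 21.7%), and the median was -0.16. Heat shock genes rose in 6 of 18 cases with none falling (median 0.40), HSPA1A and HSPA1B among them, a near-identical pair whose values are uncertain. HSPA1A was not called without the positive library 0610 (limma adjusted p = 0.0570).

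Genes of NF-kB signalling and inflammation rose in 20 of 30 cases and fell in 2, with a median log2 difference of 0.80 and 8 genes at least 2-fold higher in all 4 libraries. The neutrophil chemokine CXCL5 had an FPKM of 1.12 in the parental library and 28.2, 33.1, 42.6 and 47.4 in the sorted ones (log2 4.17, SE 0.22, limma adjusted p = 0.000265). Its relatives CXCL1 and CXCL3 rose by 2.54 and 2.21. The 0610 libraries exceeded those of 0603 for CXCL5 and CXCL1 in both fractions. The acute-phase gene SAA1 went from 0.183 to 3.77 to 7.61, and the NF-kB inhibitor TNFAIP3 (A20) from 2.40 to 9.10 to 10.3. The T-cell chemokine CCL5 stood at 1.87 in the parental library, 6.24 and 4.45 in the negative and 15.2 and 12.8 in the positive ones, so the fractions differed for this gene while all 4 lay above the parental value. LIF (-0.53) and C3 (-0.39) fell, and C3 was no longer called by limma without the positive library 0603 (adjusted p = 0.0800) or the positive library 0610 (0.0568). The summed leukocyte markers given above were also higher in the sorted libraries, and their part in this difference was not tested.

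Keratin genes split. Over the 16 tested, 7 rose, 2 fell and the median log2 difference was 0.12. KRT6A, a keratin that stratified epithelia make when wounded, was at 3.02 in the parental library and 60.4, 115, 49.3 and 80.3 in the sorted ones (log2 4.19, SE 0.18, limma adjusted p = 0.000166), although KRT6 genes are close copies and its value is uncertain. KRT17 rose by 3.38 and the basal keratin KRT5 by 2.75, KRT5 from 24.1 to 132, 263, 106 and 217. In these 3 keratins both positive libraries were above both negative ones. KRT16 (-1.39) and KRT80 (-0.82) fell.
Cornified envelope genes rose in 9 of 16 cases and fell in 1 (median 0.70). SPRR1B, an envelope precursor, went from 1.61 to 19.1 and 17.6 in the negative and 48.5 and 37.0 in the positive libraries. SPRR genes are similar in sequence, so reads can be shared. The water and glycerol channel AQP3 stood at 1.09 in the parental library and 21.6, 45.6, 31.4 and 60.9 in the sorted ones (log2 4.19, SE 0.20), and the glutathione peroxidase GPX2 at 1.14 and 14.7, 35.5, 16.3 and 41.0 (log2 3.57, SE 0.13). For both genes each positive library exceeded the negative library of its number.

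Mucin and ductal secretory genes rose in 10 of 18 cases and fell in 2, with a median log2 difference of 1.09 and 8 genes at least 2-fold higher in all 4 libraries. The adhesion glycoprotein CEACAM6 had an FPKM of 50.2 in the parental library and 337, 381, 365 and 415 in the sorted ones (log2 2.87, SE 0.13, limma adjusted p = 0.000169). The membrane mucin MUC1 was at 66.7 and 297, 337, 278 and 367 (log2 2.24, SE 0.12). The trefoil peptides TFF1 and TFF2, which protect mucous surfaces, rose by 2.25 and 2.62, and the gel-forming mucin MUC2 by 2.16. SLPI, a secreted protease inhibitor, fell from 475 to 203 to 284 (log2 -0.96, SE 0.13), and LCN2 fell by 0.43.

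Extracellular matrix and matrix protease genes rose in 21 of 27 cases and fell in 1, with a median of 0.85. The collagenase MMP1 stood at 0.967 in the parental library and 19.0, 21.1, 21.6 and 20.6 in the sorted ones (log2 3.45, SE 0.12, limma adjusted p = 0.000108), and at 678 in the resistant library. COL17A1, the hemidesmosome collagen of basal epithelium, was at 3.94 and 34.7 to 63.8 (log2 3.28), COL6A1 rose by 1.79 and THBS1 by 1.60. LAMB1 (-0.53) fell.
Among mesenchymal genes 12 of 17 rose and 3 fell, with a median of 0.70. Fibronectin, FN1, went from 6.44 to 35.9, 29.5, 55.7 and 37.9 (log2 2.42, SE 0.21), and the matrix glycoprotein SPARC from 0.337 to 3.99, 2.55, 11.8 and 7.25 (log2 2.30, SE 0.46, limma adjusted p = 0.0133). For FN1 and SPARC each negative library exceeded the positive library of its number. The kinase AXL fell by 0.46. The fibroblast markers in these libraries summed to 2.87 in the parental and 4.51 to 5.45 in the sorted ones, with DCN at 0 in all 4 sorted libraries and THY1 at 0 in all 5, and their part in the matrix and mesenchymal differences was not tested.

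The ATF4 and amino acid response genes were lower in the sorted cells. Of 32 tested, 17 fell and none rose, 26 lay below the parental library in all 4 sorted libraries, and 8 were at least 2-fold lower in all 4, TRIB3 among them. The median log2 difference was -1.15, and it was larger in the 0603 libraries (-1.66 in the negative and -1.58 in the positive) than in those of 0610 (-0.71 and -0.75). With positive, negative and parental libraries as 3 groups, limma called 6 of the 32 lower and 1 higher in place of 17 and 0. ATF4 itself had an FPKM of 658 in the parental library, 227 and 219 in the negative and positive libraries 0603, and 394 and 368 in those of 0610 (log2 -1.17, SE 0.29, limma adjusted p = 0.0258).
ASNS, which makes asparagine from aspartate and glutamine, had the largest fall of the list. It stood at 295 in the parental library, 19.3 and 21.1 in 0603 and 86.7 and 86.8 in 0610 (log2 -2.78, SE 0.72, limma adjusted p = 0.0289). The positive and negative values of each number were nearly equal, and the 0610 values lay between those of 0603 and the parental one. The serine synthesis genes showed the same order, PHGDH at 279, then 29.4 and 31.3, then 77.6 and 75.5 (log2 -2.51, SE 0.47), and PSPH at 54.9, then 15.8 and 15.4, then 27.7 and 25.3. Mitochondrial one-carbon genes fell too, SHMT2 by 1.77 and MTHFD2 by 1.49. The stress factor DDIT3 (CHOP) fell by 1.63, the transsulfuration enzyme CBS by 1.59, the secreted glycoprotein STC2 by 2.43 and the arginine transporter SLC7A1 by 1.23.
The kinase-like regulator TRIB3 was at 108, 12.5, 12.3, 51.1 and 48.4 in the same order, without a limma call. The cystine transporter SLC7A11 had 21.6 in the parental library, 6.10 and 6.55 in 0603 and 20.3 and 19.8 in 0610, so only the 0603 values stood apart, and it was not called (limma adjusted p = 0.256). The glutathione-degrading enzyme CHAC1 (-1.12), the leucine transporter SLC7A5 (-0.84) and the angiogenic factor VEGFA (-0.96) were not called either. In 31 of the 32 genes, all but ALDH18A1, the 0610 library exceeded the 0603 one in both fractions. Over all tested genes the 0610 mean was above the 0603 mean in 6188 of 11823, a looser measure than the same order in both fractions. The resistant library had 25.0 for ASNS and 224 for ATF4.

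**Figure D3:**
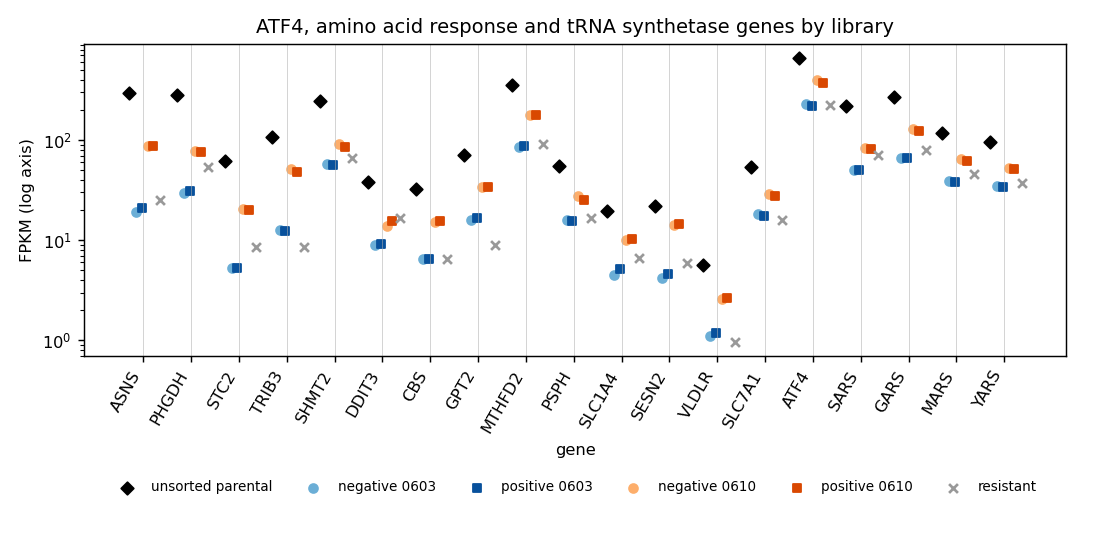
FPKM (log axis) of the 14 lowest ATF4 and amino acid response genes, ATF4 and the 4 lowest aminoacyl-tRNA synthetase genes, by library; symbols stand for single libraries. For each gene the unsorted parental library is highest among the 5 parental libraries, the 0610 pair next and the 0603 pair lowest.

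The aminoacyl-tRNA synthetases, which charge tRNAs with amino acids, fell in 10 of 19 cases and rose in 1, with a median of -0.73. The seryl enzyme SARS was at 219 in the parental library, 49.7 and 50.3 in 0603 and 82.5 and 82.1 in 0610 (log2 -1.76, SE 0.27, limma adjusted p = 0.00587), and the glycyl enzyme GARS fell by 1.54. RARS (0.00), KARS (0.00) and DARS (0.07) were not called, and the valyl enzyme VARS rose by 0.67 (SE 0.12). Several other lowest genes of the whole table showed the same order of the numbers. INHBE, an inhibin beta chain, stood at 15.7, then 0.805 and 0.801 in 0603, then 3.31 and 3.43 in 0610, and the mitochondrial folate enzyme ALDH1L2 at 25.4, 1.95, 2.42, 7.53 and 7.79. TNFSF18, the ligand of the receptor GITR, was at 25.7, 1.27, 1.15, 9.19 and 7.45. SERPINA3, a secreted inhibitor of serine proteases, stood at 42.9, 3.48, 3.66, 14.9 and 11.4.

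**Figure D4:**
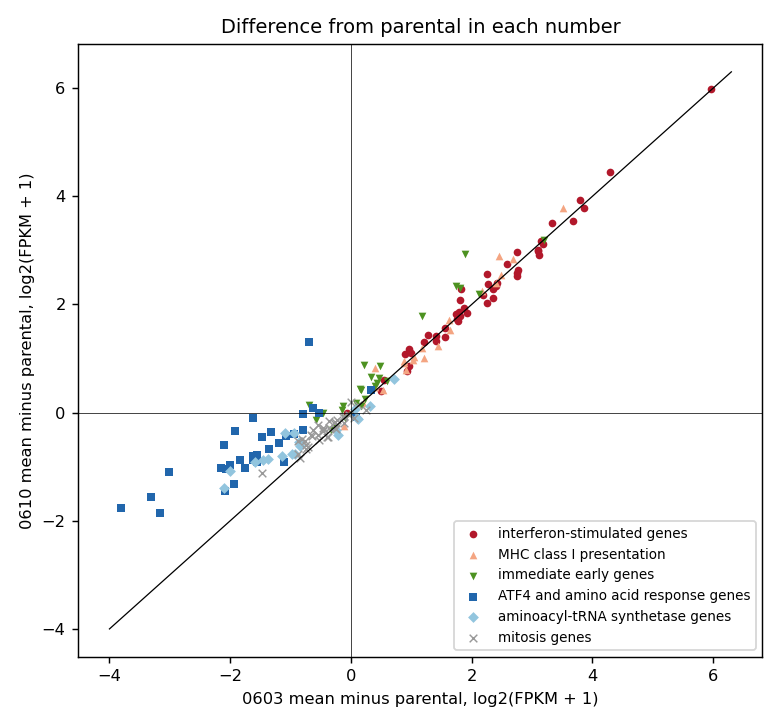
For the members of 6 lists, the mean difference from the parental library in log2(FPKM + 1) is plotted for the 0603 libraries (x axis) against the 0610 libraries (y axis); the diagonal marks equal differences, and both axes share the 1 parental library. Interferon-stimulated genes lie along the diagonal, and most ATF4 and tRNA synthetase genes lie above it, with smaller falls in 0610.

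Other low genes had similar levels in both numbers. MB, the oxygen-binding protein myoglobin, had an FPKM of 17.3 in the parental library and 1.34, 1.09, 1.12 and 1.13 in the sorted ones (log2 -3.08, SE 0.12, limma adjusted p = 0.000118). The growth factor FGF18 stood at 18.9 and 2.31, 1.33, 2.48 and 1.55, and ELF5, an ETS-family factor of glandular epithelium, at 36.5 and 6.46, 2.89, 6.42 and 3.85. For FGF18 and ELF5 the positive libraries were the lowest. GAL3ST1, a sulfotransferase that makes sulfatide, fell by 2.30 (SE 0.13), FAM167A by 2.16 (SE 0.15) and CACNA2D4, an auxiliary subunit of calcium channels, by 2.61 (SE 0.23). The secreted serine proteases KLK6 and KLK11 fell by 2.29 (SE 0.14) and 1.70 (SE 0.12), the kinase gene DCLK1 by 2.15 and the calcium-binding protein gene CALB2 (calretinin) by 1.51. ANKRD1, a YAP target, fell by 1.74 (SE 0.12) while the YAP list as a whole had 3 of 23 members that rose and 5 that fell. RAD23B, a nucleotide excision repair gene, was listed at 0 in all 4 sorted libraries, at 65.8 in the parental and at 58.7 in the resistant one. PLEC, which links the cytoskeleton to junctions, was listed at 0 in the parental and resistant libraries and at 137 to 160.2 in the sorted ones. Such zeros can be failed estimates in this table, since PKM, which every cell uses, is listed at 0 in the positive library 0603 alone.

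Genes of mitosis fell in 15 of 35 cases and none rose, with a median of -0.40. HMMR, a spindle protein, was at 78.0 in the parental library and 25.6, 29.4, 33.4 and 37.5 in the sorted ones (log2 -1.30, SE 0.17, limma adjusted p = 0.00377), and the ubiquitin-conjugating enzyme UBE2C fell by 0.65. CDK1 (-0.09) and CDC20 (-0.02) were not called. In all 35 genes the positive library exceeded the negative one in both numbers. Over all tested genes the positive mean was above the negative mean in 6440 of 11823, a looser measure than the same order in both numbers. S phase genes rose in 11 of 38 cases (28.9%, against 21.7% of all tested genes) and fell in 2 (median 0.28), CDT1, a replication licensing factor, by 1.05. Without the positive library 0610 the number that rose was 7, against 2145 of the 11823 tested genes, so the share was near that of all genes. Of 21 histone cluster genes, whose close copies make single values uncertain, 8 fell and none rose.
Cytosolic ribosomal protein genes fell in 26 of 38 cases and rose in 2, with a median of -0.60. After quantile normalization 18 fell, 5 rose and the median was -0.26. RPS2 went from 5806 to 3084, 2684, 2725 and 2507, and RPLP2 rose by 0.81. In each of the 38 the positive library was below the negative one in both numbers. By the looser measure of means, positive was above negative in 6440 of all 11823 tested genes. Cholesterol synthesis genes fell in 9 of 24 cases and none rose (median -0.34), FDPS, which makes farnesyl diphosphate, from 509 to 250.2 to 276. Of 19 fatty acid synthesis genes, 3 rose and 4 fell, FASN by 1.05 upward and ACSS2, which makes acetyl-CoA from acetate, from 158 to 75.9 to 88.1.

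The remaining lists follow by their counts. Of all tested genes, 21.7% rose and 14.2% fell. The share that rose was near this for glycolysis and hypoxia genes (22.6%) and endoplasmic reticulum chaperone genes (22.7%). Of 21 p53 target genes 6 rose and none fell (median 0.22), among them the cell cycle inhibitor CDKN1A, at 7.67 in the parental library, 19.2 and 27.0 in 0603 and 47.6 and 54.4 in 0610. Notch pathway genes rose in 6 of 13 cases and fell in 1, the ligand JAG2 by 1.67 and the receptor NOTCH1 by 1.22, while the target HES1 fell by 0.57. Wnt pathway genes rose in 7 of 14 cases and none fell, with a median of 0.54 and medians of 0.52 to 0.60 in the single sorted libraries, the inhibitor DKK1 by 2.07, from 20.8 to 85.6 to 97.7. TGF-beta and BMP genes rose in 8 of 22 cases and fell in 4, lysosome genes rose in 10 of 28 and fell in 1, and complement and coagulation genes rose in 6 of 15 and fell in 2. Junction genes rose in 9 of 27 cases and fell in 3, and glycolysis and hypoxia genes in 7 and 3 of 31. Endoplasmic reticulum chaperone genes rose in 5 and fell in 2 of 22, and the folding cofactor SDF2L1 rose by 1.57. NRF2 targets rose in 8 and fell in 2 of 23 with a median of 0.05, which was -0.0008 with median ratio scaling. Of 33 nuclear respiratory chain genes 1 rose and 3 fell, of 6 metallothionein genes 1 fell, of 8 neurosecretory genes 3 rose and 3 fell, and of 7 kallikreins 3 fell. PODXL (podocalyxin), the carrier of the sorted epitope, fell from 153 to 104, 108, 110.3 and 109 (log2 -0.50, SE 0.12, limma adjusted p = 0.0227), with no order between positive and negative cells, and 3 of the 11 genes of its list rose and 2 fell.

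**Figure D5:**
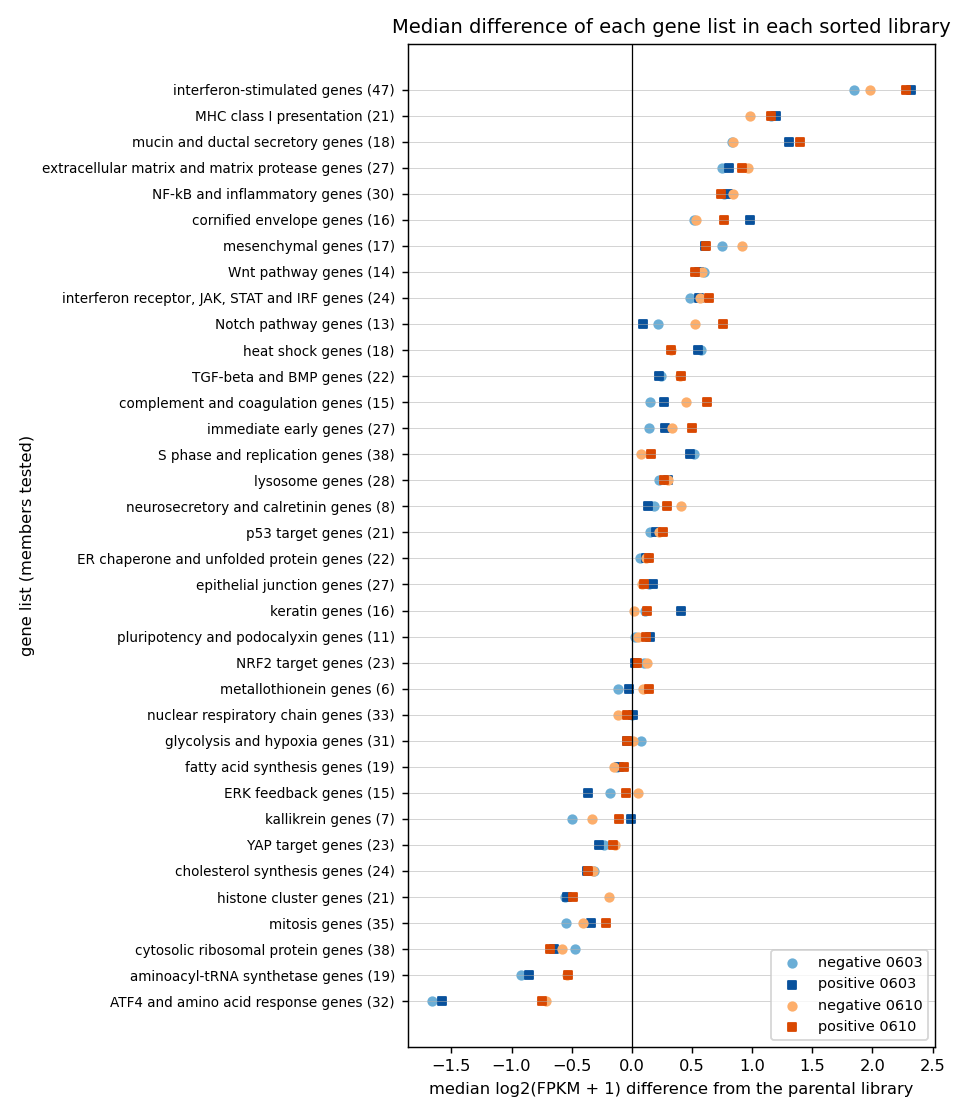
Median difference from the parental library in log2(FPKM + 1) for 36 gene lists (y axis, members tested in parentheses), with 1 symbol for each of the 4 sorted libraries. Interferon-stimulated genes are farthest right, at 1.85 to 2.32, and ATF4 and amino acid response genes farthest left, at -1.66 to -0.71.

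By position in hg19, 16 runs of at least 3 neighbouring 2-fold higher genes with gaps of at most 100 kb were found, and 0 runs of 2-fold lower genes. The higher genes numbered 449 and the lower ones 133, so fewer lower runs could form. The run of SCRIB, PLEC and PARP10 on chromosome 8 depends on PLEC, which is listed at 0 in the parental library. Tandem interferon-stimulated families made up several. IFIT2, IFIT3, IFIT1 and IFIT5 (chromosome 10, 91061706 to 91180759) were all of the 4 tested genes of their span, and OAS1, OAS3 and OAS2 (chromosome 12, 113344739 to 113449528) all of 3. The class I loading genes TAP2, PSMB8, TAP1 and PSMB9 (chromosome 6, 32789610 to 32827628) were likewise all of 4. On chromosome 1, PLEKHN1, HES4, ISG15, AGRN and RNF223 (901877 to 1009687) were all of 5, although only ISG15 of these is in the interferon-stimulated list. ANXA10, DDX60 and DDX60L lie together on chromosome 4 (169013688 to 169401638), and ABCG1, TFF2 and TFF1 on chromosome 21 (43619799 to 43786644). Neighbouring and overlapping genes can share reads where strand is not used, and the sources used here do not say whether it was. The median log2 difference of chromosomes with at least 100 tested genes ran from -0.09 (chromosome 12) to 0.31 (chromosome 22), and the share of genes at least 2-fold higher was 9.86% of the 294 tested on chromosome 22, 11 of the 110 on chromosome 21 and 6.76% of the 710 on chromosome 11, against 3.8% overall.

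The 2-fold genes were also read in the resistant library. Of the 449 higher genes, 262 (58.4%) lay within 2-fold of the sorted mean there, 115 (25.6%) were at least 2-fold above it and 72 (16.0%) at least 2-fold below it. Of the 133 lower genes, 95 lay within 2-fold, 16 above and 22 below. Over all tested genes 88.4% lay within 2-fold of the sorted mean. All 47 interferon-stimulated genes were above the parental value in the resistant library, and 41 were above all 4 sorted ones. How many of all tested genes share these orders was not counted. The median log2 difference, resistant minus sorted mean, was 0.95 for this list and 0.02 over all tested genes. No other unsorted parental library was analysed here, so the spread among unsorted libraries is unknown.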

How the data were processed

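RNA-seq of 6 SW1990 libraries was deposited as 1 table of gene values. The deposited values were taken as FPKM, the unit written by Cufflinks 2.1.1, which is listed in the submitters' processing notes with TopHat2 2.0.11, CASAVA 1.8.2 and hg19. The table's header names no unit, and the role and settings of the tools were not given in the sources used here. Of 19312 rows, 235 were left out where 191 symbols repeated (the row of highest mean was kept), which left 19077 genes. Read counts could not be recovered, so no count model was used and depth is approximate. Values were analysed as log2(FPKM + 1), which understates changes of low genes, for the 11823 genes that reached an FPKM of 1 in any of the 5 parental libraries. Of these, 1 gene that the table places on chromosome Y is not named.

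limma 3.58.1 (R 4.3.3; trend, two-sided, Benjamini-Hochberg over all genes tested) compared the 2 means of positive and negative libraries within each number with the parental library. Libraries of a number were averaged because they may share a culture or sort: across genes, the 0610 minus 0603 differences of positive and negative libraries correlated at 0.643. The fit was also run on simulated data. There the parental values were drawn with the same spread as the sorted ones, so that run cannot check whether the parental library varies like them. Promoter letters came from RefSeq (GRCh38.p14), matched by the transcript accessions of the table or else the current symbol. Named genes are the 15 highest and 15 lowest 2-fold genes with an FPKM of at least 5, and come from up to 4 and 2 extreme members of each list, of which some are counted only; other list members are named as examples chosen after their values were seen, as were RAD23B's and PLEC's zeros. The members and lists were chosen with earlier results of these data known.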

Additional observations from a re-analysis of the deposited data

Results flagged for a closer look

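In 6 of the named genes both libraries of one number lay above the parental value and both of the other lay below it. Differences are 0610 minus 0603 in log2(FPKM + 1), and the difference between the numbers was not tested. GDF15, a stress-induced cytokine, had the largest, at 1.998, with FPKM of 39.4 in the parental library, 23.6 and 24.4 in 0603 and 98.5 and 99.2 in 0610. The mitochondrial chaperones HSPD1 and HSPE1, which share a promoter region, differed by -0.30 and -0.64. The kinase JAK1 differed by 0.16, and the metallothioneins MT2A and MT1X by 0.15 and 0.29.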

How the results depend on the processing

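With no filter on low values limma called 0 genes higher and 0 lower (5644 at an unadjusted p under 0.05). A fit with the number as a replicate block, each of the 4 sorted libraries counted singly, called 4114 higher and 3142 lower; the parental library has no number of the pair, so the block does not pair it with any sorted library. At least 2-fold in all 4 libraries were 775 higher and 222 lower genes with a pseudocount of 0.1, and 161 and 59 with a pseudocount of 5, which by construction raises and lowers the differences of low genes. With the 0603 libraries alone, an alternative chosen after seeing the data, 301 genes were 2-fold lower. Leaving out 1 sorted library at a time gave 2145 to 2706 genes higher and 1421 to 1768 lower by limma, and 457 to 484 and 137 to 160 by the 2-fold rule. That rule asks every library used to pass. By construction, using fewer libraries, as also with 0603 alone, can only keep or add 2-fold genes. The median of the NRF2 list was -0.0186 with an FPKM minimum of 5 and -0.0008 with median ratio scaling. That of the neurosecretory list was 0.270 with the main settings and -1.0011 with the minimum of 5. The pluripotency and podocalyxin list had a median of 0.107 with the main settings. It was -0.0121 with no filter, -0.0127 with the minimum of 5 and -0.0519 with quantile normalization. GAPDH fell with the main settings, and its difference was -0.6175 without the positive library 0603. With quantile normalization GAPDH differed by 0.055, in the other direction. The cause of these reversals was not tested. The lone parental library cannot be left out, and depth limits values near the 3-fragment level.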
